A study of Mus musculus with 12 samples.

Results

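Aminoacyl-tRNA synthetases attach each amino acid to its tRNA, and this report describes the mRNAs of 35 of them in mouse kidney cortex. The genes were chosen by symbol: a row of the deposited table belonged when the symbol in its gene identifier was on the list, and symbols ending in 2 were taken as mitochondrial. This gave 35 of 55450 genes, 19 cytosolic and 16 mitochondrial, and all 35 passed the filter on low counts that left 15708 genes for testing.

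The mRNA of the outer kidney cortex was sequenced from 12 mice aged 12 weeks, in 4 groups of 3 mice. The groups were Tg26 mice given INT-747, wild-type (WT) mice given INT-747, Tg26 mice given nicotinamide riboside (NR) and WT mice given NR. The transgene of Tg26 mice is a replication-defective HIV-1 provirus, and these mice serve as a model of HIV-associated nephropathy. INT-747 (obeticholic acid) activates the bile acid receptor FXR, and NR is a precursor of NAD. Every mouse received one of these agents, so no value here is a comparison with untreated kidney. The sources used here give no dose, duration or route of treatment, no strain and no sex.

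Cytosolic synthetases charge the tRNAs used by cytosolic ribosomes, and several of them are held together in the multisynthetase complex, of which Dars, Eprs, Iars, Kars, Lars, Qars and Rars encode members. A separate nuclear-encoded set is imported into mitochondria and charges the tRNAs used to translate the mitochondrial genome, which encodes subunits of the respiratory chain. Gars and Kars each supply both compartments, Eprs charges glutamate and proline tRNAs with 1 protein, and cytosolic phenylalanyl-tRNA synthetase is built from the catalytic subunit Farsa and the subunit Farsb. Many cytosolic synthetase genes are targets of ATF4, the transcription factor of the amino acid response, through a composite element called CARE.

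RefSeq promoters (GRCm38.p6, the assembly also called mm10, 250 bases before to 50 bases after the annotated start) were matched for 26 of the 35 genes. The CARE letters TGATGNAA, searched on both strands, were found in 5 of these 26 genes, or 18.5% of 27 promoters, against 3.97% of all 32851 promoters of the same length in the table. The 5 genes were all among the 12 cytosolic genes with a promoter, and none of the 14 mitochondrial genes with a promoter held a match. The stretches around the matches are shown because they set these 5 genes apart from the other members with a matched promoter. Members without a matched promoter, such as Nars, Cars and Wars, were not searched. Each is written 5′ to 3′ on the gene's strand with 25 bases on either side of the match, and the capitals mark TGATGNAA or its reverse complement.
Aars, chr8:111033705-111033883, plus strand: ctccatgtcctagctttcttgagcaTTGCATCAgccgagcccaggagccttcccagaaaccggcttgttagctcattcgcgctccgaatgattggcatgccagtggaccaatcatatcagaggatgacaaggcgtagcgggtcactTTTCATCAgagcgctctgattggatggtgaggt
Gars, chr6:55037946-55038003, plus strand: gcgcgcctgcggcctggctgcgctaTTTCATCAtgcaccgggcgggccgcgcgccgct
Iars, chr13:49682112-49682169, plus strand: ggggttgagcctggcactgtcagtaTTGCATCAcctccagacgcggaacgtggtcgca
Tars, chr15:11399641-11399698, minus strand: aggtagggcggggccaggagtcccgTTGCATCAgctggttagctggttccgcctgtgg
Yars, chr4:129189881-129189938, plus strand: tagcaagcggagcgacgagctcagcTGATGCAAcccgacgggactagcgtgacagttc
Aars held 2 matches and the other genes 1 each. The matches of Iars and Yars and the second match of Aars lay downstream of the annotated start and the others upstream. A match is a description of letters, not a shown binding site.

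The Farsb promoter is shown because Farsb varied most among these mice. It held no CARE letters, and the capitals mark its E-box CACGTG at positions -39 to -34, counted with the annotated start as 0.
Farsb, chr1:78488848-78489147, minus strand: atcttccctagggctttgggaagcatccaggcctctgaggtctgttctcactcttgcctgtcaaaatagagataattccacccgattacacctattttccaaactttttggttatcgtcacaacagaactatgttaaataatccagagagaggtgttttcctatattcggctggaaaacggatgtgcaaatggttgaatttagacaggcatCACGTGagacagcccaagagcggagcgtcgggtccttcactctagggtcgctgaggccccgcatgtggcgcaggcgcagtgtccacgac
Across the 27 promoters the E-box was found in 18.5%, against 7.15% of all promoters, and the GC box GGGCGG in 70.4% against 35.7%. The CCAAT box CCAAT was found in 44.4% against 37.4%, and the ETS motif CCGGAAGT in 7.41% against 3.89%. The heat shock element and the NRF1 motif were found in 0 member promoters, against 0.603% and 0.971% of all promoters. All were searched on both strands.

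Levels of different genes were compared as counts-per-million (CPM) per kilobase of exon. The median cytosolic member stood at 11.2 ± 1.02 CPM per kilobase and the median mitochondrial member at 3.98 ± 0.433 CPM per kilobase (SD over 12 libraries). The ranges of these medians did not overlap, at 9.56 to 13.2 for cytosolic and 3.32 to 4.66 for mitochondrial members. The most abundant cytosolic mRNAs were Nars (asparagine) with 27.1 ± 1.51, Sars (serine) with 25.8 ± 2.80 and Farsb with 23.9 ± 5.98 CPM per kilobase, which did not differ beyond their spread. Hars (histidine) and Gars (glycine) followed at 20.1 ± 1.43 and 19.7 ± 0.936 CPM per kilobase. This order depended on the length used. Over the longest transcript Nars, Sars and Farsb stayed highest, at 43.0, 37.2 and 30.7 CPM per kilobase. Qars, Kars and Dars then followed at 29.9, 26.6 and 26.1, above Gars at 25.8 and Hars at 24.7. The least abundant cytosolic mRNA was Cars (cysteine), with 3.39 ± 0.448 CPM per kilobase. Among mitochondrial members Rars2 (arginine) was highest with 15.3 ± 2.66 CPM per kilobase, and Mars2 (methionine) was lowest with 0.938 ± 0.105 CPM per kilobase. Together the 35 genes took 0.153% to 0.171% of the counts of a library, which is 36882 to 49499 counts.

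**Figure D1:**
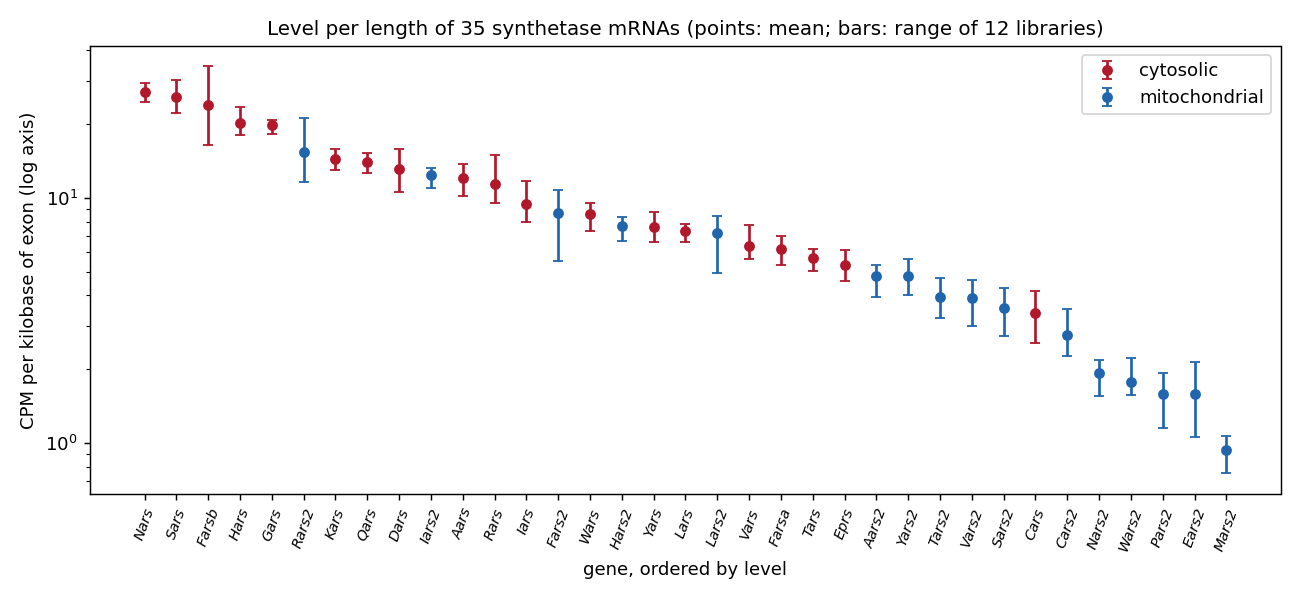
Mean level of each of the 35 synthetase mRNAs in CPM per kilobase of exon (log axis), with bars for the range over 12 libraries, for cytosolic (red) and mitochondrial (blue) members. The genes run from Nars at 27.1 to Mars2 at 0.938 CPM per kilobase, and Rars2 and Iars2 are the mitochondrial members that lie among the abundant cytosolic ones.

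The balance between the cytosolic and the mitochondrial enzyme of an amino acid differed widely between amino acids. On the scale of CPM per kilobase the ratio of Nars to Nars2 was 14.1 ± 1.10, that of Sars to Sars2 was 7.44 ± 1.63 and that of Wars to Wars2 (tryptophan) was 4.82 ± 0.383 (SD over 12 libraries). For arginine and isoleucine the mitochondrial mRNA was the more abundant in every library. The ratio of Rars to Rars2 was 0.750 ± 0.0527, with a range of 0.670 to 0.868, and that of Iars to Iars2 was 0.766 ± 0.0894, with a range of 0.660 to 0.980. Lars and Lars2 (leucine) stood at a ratio of 1.04 ± 0.224, which does not differ from equality beyond its spread, but over the length of the longest transcript they stood at 9.84 and 20.5 CPM per kilobase. Farsb mRNA stood above that of its partner Farsa in every library, at 2.92 to 5.01 times its level per kilobase.

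After TMM scaling of the libraries, most synthetase mRNAs were higher under INT-747 than under NR in Tg26 mice. Of the 35 members 30 were higher and 5 lower in Tg26 mice given INT-747 than in Tg26 mice given NR, with a median log2 fold change of 0.20, against 46.1% of all genes higher and a median of -0.04 over all genes tested. 3 members, Farsb, Rars2 and Tars2, rose at an adjusted p under 0.05 (edgeR's quasi-likelihood test, Benjamini-Hochberg over 15708 genes) and none fell, where 4.38% of all genes tested were called and 2.9% were called higher. At an unadjusted p under 0.05, 15 members were higher and 0 lower, against 14.3% of all genes higher and 12.9% lower. In 15 members every INT-747 library lay above every NR library, against 15.4% of all genes, and in 1, Lars, every INT-747 library lay below every NR library, against 12.5% of all genes. In these whole-tissue libraries fewer cells of a type and less RNA per cell cannot be told apart.

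Farsb, the gene of the phenylalanyl subunit (ENSMUSG00000026245.16, chr1:78417975-78488897 on mm10, minus strand), had 69.1, 67.3 and 85.8 CPM in Tg26 mice given INT-747. In Tg26 mice given NR it had 43.6, 49.4 and 43.1 CPM. The 3 INT-747 mice stood above the 3 NR mice, and the log2 fold change was 0.71 with a standard error (SE) of 0.13 and an adjusted p of 0.0287 in edgeR. Rars2, the mitochondrial arginyl enzyme (ENSMUSG00000028292.14, chr4:34614957-34660167, plus strand), had 51.9, 42.2 and 58.3 CPM in Tg26 mice given INT-747. It had 32.7, 40.6 and 32.0 CPM in Tg26 mice given NR. The groups again did not overlap, though the lowest INT-747 mouse at 42.2 CPM lay close to the highest NR mouse at 40.6 CPM, and the log2 fold change was 0.53 (SE 0.13, adjusted p = 0.0436 in edgeR). Tars2, the mitochondrial threonyl enzyme (ENSMUSG00000028107.14, chr3:95739976-95760206, minus strand), had 31.9, 29.3 and 32.5 CPM in Tg26 mice given INT-747. It had 25.5, 22.5 and 24.8 CPM in Tg26 mice given NR, below all 3. Its log2 fold change was 0.36 (SE 0.09, adjusted p = 0.0453 in edgeR).

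These 3 calls lie close to the threshold. A library of the Tg26 NR group, replicate 3, stood apart with 5816 Xist counts and 0 counts of 4 Y-linked genes, where the other 11 libraries had 1 to 8 Xist counts. Without it no member was called in this comparison, and Farsb, Rars2 and Tars2 had log2 fold changes of 0.65, 0.45 and 0.35 (adjusted p = 0.0663, 0.0974 and 0.0898 in edgeR), while 30 of 35 members were still higher with a median of 0.20. Of all genes tested 0.393% were called without it. Leaving out replicate 1 or 3 of the Tg26 INT-747 group, replicate 1 of the Tg26 NR group or replicate 1 of the WT INT-747 group also gave 0 calls among the members, with 0% to 0.454% of all genes called. Leaving out replicate 2 of the Tg26 NR group gave 6, with 14.5% of all genes called.

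Mitochondrial members were higher in 15 of 16 cases, with a median log2 fold change of 0.27, and cytosolic members in 15 of 19 cases, with a median of 0.19, in INT-747 over NR in Tg26 mice. Besides the called genes, the mitochondrial members with the largest differences were Ears2 (glutamate, 0.55, SE 0.22), Lars2 (0.45, SE 0.13), Cars2 (0.43, SE 0.13) and Vars2 (valine, 0.38, SE 0.12), all at adjusted p values between 0.0709 and 0.137 in edgeR. Cars2 overlaps Naxd, on the opposite strand, by 984 bases. Naxd had 22096 counts over the 12 libraries against 5899 for Cars2, and its own log2 fold change in this comparison was 0.47 (SE 0.18, adjusted p = 0.126 in edgeR). Ears2 overlaps Ubfd1 by 89 bases, also on the opposite strand, and Ubfd1 had 10330 counts against 2414 for Ears2. Whether counting used strand is not stated, so reads that fall inside either overlap cannot be told apart. Pars2 (proline) was the exception, at -0.03 (SE 0.18). Among cytosolic members Dars (aspartate) stood nearest to the threshold. It had 60.2, 53.9 and 68.9 CPM in Tg26 mice given INT-747, against 48.5, 49.7 and 46.1 CPM in Tg26 mice given NR, a log2 fold change of 0.34 (SE 0.09, adjusted p = 0.0527 in edgeR). Of the 7 listed synthetase genes that belong to the multisynthetase complex, 6 were higher, and Lars was lower at -0.16 (SE 0.07, adjusted p = 0.195 in edgeR). Vars and Sars were lower too, at -0.18 (SE 0.11) and -0.07 (SE 0.09), and Gars and Kars, which serve both compartments, were at 0.02 or nearer to 0 (SE 0.07 and 0.08).

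**Figure D2:**
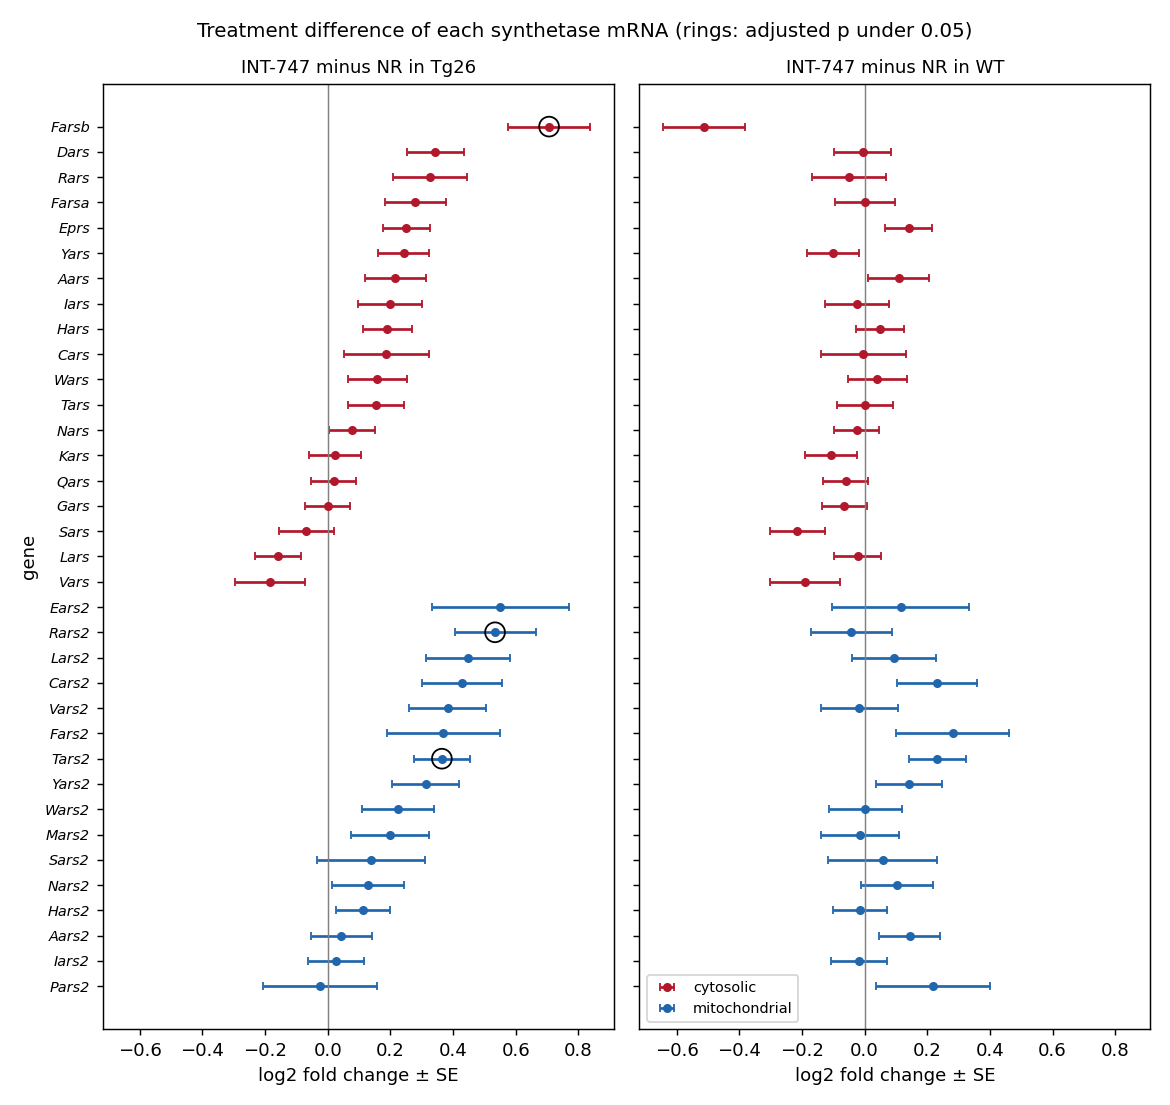
Log2 fold change of each synthetase mRNA between INT-747 and NR in Tg26 mice (left) and in WT mice (right), with bars for the standard error and rings for an adjusted p under 0.05. In Tg26 mice 30 of 35 points lie above 0 and Farsb, Rars2 and Tars2 are ringed. In WT mice 17 of 35 lie above 0, none is ringed, and Farsb has the lowest value, at -0.51.

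In WT mice, of the 35 members, 17 were higher and 18 lower under INT-747 than under NR, with a median log2 fold change of -0.00, against 48.7% of all genes higher. The mitochondrial members were higher in 11 of 16 cases (median 0.10) and the cytosolic members in 6 of 19 (median -0.02). No member was called by edgeR, DESeq2 or limma-voom, where 0.0127% of all genes tested were called by edgeR, and 1 member was higher and 2 lower at an unadjusted p under 0.05, which 5.01% of all genes passed. Tars2 had 29.5, 28.5 and 29.5 CPM in WT mice given INT-747, against 27.8, 23.2 and 23.5 CPM in WT mice given NR. Every INT-747 mouse lay above every NR mouse, which 6.65% of all genes tested showed. The log2 fold change was 0.23 (SE 0.09, adjusted p = 0.894 in edgeR). Eprs had 111, 101 and 98.2 CPM in WT mice given INT-747, against 93.6, 91.1 and 96.3 CPM in WT mice given NR. Its log2 fold change was 0.14 (SE 0.07, unadjusted p = 0.0839 in edgeR), without overlap between the groups. Sars went the other way, with 127, 133 and 134 CPM in WT mice given INT-747 and 146, 156 and 155 CPM in WT mice given NR (-0.21, SE 0.09, adjusted p = 0.93 in edgeR). Over the mean of both genotypes 29 of 35 members, among them all 16 mitochondrial ones, were higher under INT-747 than under NR (median 0.10), against 47.1% of all genes. None was called there by edgeR, where 0.427% of all genes tested were, while DESeq2 called 3 members and 4.94% of all genes, and 10 members were higher and 2 lower at an unadjusted p under 0.05, which 17.7% of all genes passed.

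The genotypes were compared within each treatment. The comparison under NR shares the Tg26 NR mice with the treatment comparison in Tg26 mice, and that under INT-747 shares the Tg26 INT-747 mice, so their signs are not independent. Under NR, 31 of 35 members were lower in Tg26 than in WT mice, with a median log2 fold change of -0.14, against 51.4% of all genes lower and a median of -0.01. No member was called by edgeR or limma-voom and 1, Farsb, by DESeq2. Of all genes tested edgeR called 0% and DESeq2 6.16%. Without Tg26 NR replicate 2 edgeR called 2 members, Farsb and Sars, and 4.9% of all genes, and without Tg26 NR replicate 3 it called Farsb and 2.08% of all genes. At an unadjusted p under 0.05, 7 members were lower and 0 higher, against 8.73% of all genes lower. For 8 members every Tg26 library lay below every WT library, against 9.54% of all genes. The cytosolic median was -0.13 and the mitochondrial median -0.15.

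Dars had 48.5, 49.7 and 46.1 CPM in Tg26 mice given NR, against 62.8, 58.2 and 56.8 CPM in WT mice given NR. The groups were separate, with a log2 fold change of -0.30 (SE 0.09, adjusted p = 0.139 in edgeR). Sars had 122, 142 and 115 CPM in Tg26 mice given NR, against 146, 156 and 155 CPM in WT mice given NR, also without overlap (-0.27, SE 0.09, adjusted p = 0.149 in edgeR). Iars (isoleucine) had 41.9, 46.7 and 42.2 CPM in Tg26 mice given NR and 52.2, 44.9 and 61.7 CPM in WT mice given NR. Those groups overlapped, and the log2 fold change was -0.28 (SE 0.10, adjusted p = 0.168 in edgeR). Nars, the most abundant member per kilobase, had 107, 114 and 109.7 CPM in Tg26 mice given NR. It had 122, 121 and 128 CPM in WT mice given NR, without overlap (-0.16, SE 0.07, adjusted p = 0.235 in edgeR). The least abundant member of each compartment per kilobase overlapped between these groups. Cars, the cytosolic one, had 16.9 to 21.0 CPM in Tg26 and 18.8 to 27.5 CPM in WT mice. Mars2, the mitochondrial one, had 8.51 to 10.2 CPM in Tg26 and 10.1 to 12.1 CPM in WT mice.

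Under INT-747 the members lay on both sides of 0: 19 were higher and 16 lower in Tg26 than in WT mice, with a median log2 fold change of 0.05, against 51.7% of all genes higher and a median of 0.01. No member was called by edgeR, DESeq2 or limma-voom, where edgeR called 0.267% of all genes tested, and 2 members were higher and 1 lower at an unadjusted p under 0.05, which 15.3% of all genes passed. Wars, which is also induced by interferon-γ, had 32.5, 32.9 and 32.7 CPM in Tg26 mice given INT-747, against 27.4, 27.1 and 30.8 CPM in WT mice given INT-747. Every Tg26 mouse lay above every WT mouse, with a log2 fold change of 0.20 (SE 0.09, adjusted p = 0.334 in edgeR). That separation was seen in 2 of 35 members, against 12.5% of all genes, and the opposite one in 3 members, against 13.5%. Pars2 had 4.13, 3.55 and 5.53 CPM in Tg26 mice given INT-747, against 5.96, 5.73 and 5.80 CPM in WT mice given INT-747. It was lower in each Tg26 mouse, at -0.41 (SE 0.18, adjusted p = 0.318 in edgeR). Over the mean of both treatments 27 of 35 members were lower in Tg26 than in WT mice (median -0.06), against 49.3% of all genes. None was called there by edgeR, where 0.446% of all genes tested were, and 1 was by DESeq2, which called 7.61% of all genes.

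**Figure D3:**
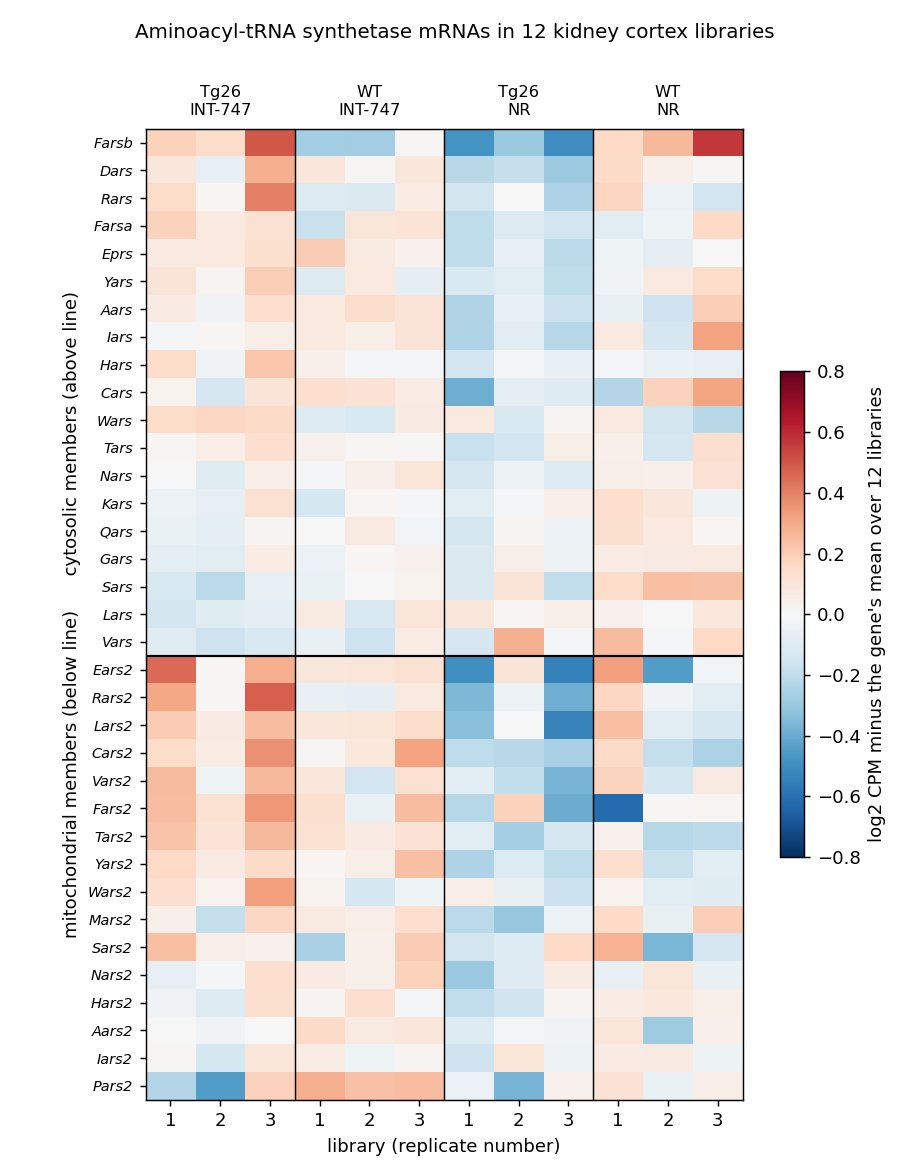
Log2 CPM (TMM library sizes) of each synthetase mRNA in each library minus the gene's mean over 12 libraries. Cytosolic members are above the line and mitochondrial members below it. In the Tg26 NR columns 3 to 8 of 35 members lie above their mean (red), in the Tg26 INT-747 columns 24, 17 and 32 of 35, and Farsb has the widest spread, between 43.1 and 89.9 CPM.

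The 2 genotype differences were set against each other in 1 fit, as the interaction (Tg26 minus WT under INT-747, minus the same under NR). It was above 0 for 32 of 35 members, with a median of 0.14, against 47.7% of all genes above 0 and a median of -0.03. No member was called by edgeR or limma-voom, and DESeq2 called 1. Of all genes tested edgeR called 0% and DESeq2 1.57%. At an unadjusted p under 0.05, 6 members were above 0 and none below, against 8.63% of all genes above 0.

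Farsb had the smallest unadjusted interaction p in edgeR of all genes tested, 3.06e-05, with an interaction of 1.22 on the log2 scale (SE 0.19) and an adjusted p of 0.123. DESeq2 gave an adjusted p of 3.53e-05, and edgeR gave 0.0324 without Tg26 NR replicate 2, where it called 1.09% of all genes. Under INT-747 Farsb averaged 74.1 ± 10.2 CPM in Tg26 mice and 53.9 ± 6.35 CPM in WT mice (SD, n = 3 each), the single WT values being 50.4, 50.2 and 61.3 CPM. Under NR it averaged 45.4 ± 3.48 CPM in Tg26 mice and 76.9 ± 11.5 CPM in WT mice, the single WT values being 68.0, 72.9 and 89.9 CPM. Every Tg26 mouse thus lay above every WT mouse under INT-747 and below every WT mouse under NR. Farsb was the only member with that pattern, which 205 of the 15708 genes showed (1.31%). The genotype differences taken singly were 0.46 under INT-747 (SE 0.13, adjusted p = 0.169 in edgeR) and -0.76 under NR (SE 0.13, adjusted p = 0.125 in edgeR). In WT mice the treatment difference was -0.51 (SE 0.13, adjusted p = 0.543 in edgeR), opposite in sign to that in Tg26 mice.

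The partner subunit Farsa and the mitochondrial phenylalanyl enzyme Fars2, shown beside Farsb after its values had been seen, overlapped between Tg26 and WT mice in at least 1 treatment. Farsa had 31.6, 29.3 and 30.3 CPM in Tg26 and 24.6, 29.8 and 30.1 CPM in WT mice under INT-747. It had 24.1, 25.9 and 25.1 CPM in Tg26 and 26.2, 27.1 and 31.1 CPM in WT mice under NR. Its interaction was 0.28 (SE 0.14, adjusted p = 0.342 in edgeR). The ratio of Farsb to Farsa per kilobase ran from 3.79 to 4.91 in Tg26 and from 2.92 to 3.54 in WT mice under INT-747, and from 2.98 to 3.30 in Tg26 and from 4.50 to 5.01 in WT mice under NR. The mRNAs of the paired subunits therefore did not keep a fixed ratio across the groups. Fars2 ran from 53.2 to 62.0 CPM in Tg26 and from 47.0 to 57.9 CPM in WT mice under INT-747, and from 37.1 to 55.5 CPM in Tg26 and from 31.8 to 49.2 CPM in WT mice under NR. Its interaction was 0.09 (SE 0.25). Sgpp2 overlaps Farsb by 2315 bases on the opposite strand, and the sources used here do not say whether counting used strand. Sgpp2 had 4248 counts over the 12 libraries against 18467 for Farsb, and its interaction was -0.19 (SE 0.30).

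**Figure D4:**
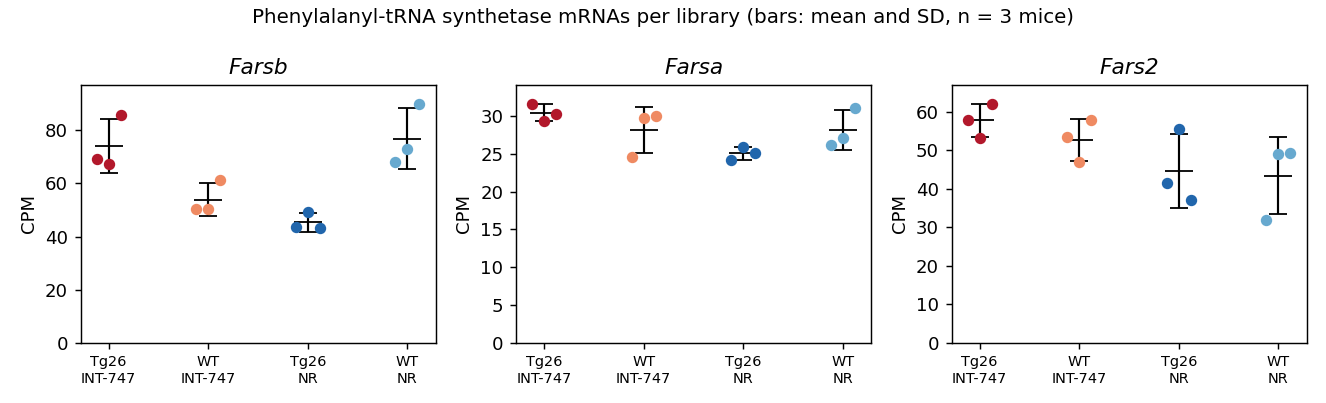
CPM of Farsb, Farsa and Fars2 in each mouse, by group, with the mean and SD (n = 3). Farsb lies at 67.3 to 85.8 in Tg26 and 50.2 to 61.3 in WT mice under INT-747, and at 43.1 to 49.4 in Tg26 and 68.0 to 89.9 in WT mice under NR.

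Rars2 came next in size of interaction, at 0.58 (SE 0.18, adjusted p = 0.255 in edgeR). It had 40.2, 39.6 and 44.3 CPM in WT mice given INT-747 and 47.1, 41.2 and 39.6 CPM in WT mice given NR, values that overlapped. Ears2 (0.44, SE 0.31), Vars2 (0.40, SE 0.17), Rars (arginine, 0.37, SE 0.17), Dars and Lars2 (both 0.35) and Yars (tyrosine, 0.34, SE 0.12) followed. Tars2, in contrast, had 0.13 (SE 0.13), its treatment differences being 0.36 in Tg26 and 0.23 in WT mice. Rars2 shares its upstream region with Orc3, of the origin recognition complex, whose start lies 13 bases away on the other strand. Orc3 had a log2 fold change of 0.29 between INT-747 and NR in Tg26 mice (SE 0.08, adjusted p = 0.0525 in edgeR). Among other non-member genes starting head to head with a member, Lyrm4 (beside Fars2), Ubfd1 (Ears2) and Mrps12 (Sars2) were at 0.50, 0.42 and 0.16. S100pbp (beside Yars) and Terf2ip (Kars) were at -0.34 and -0.03. Of these genes only Ubfd1 was called (adjusted p = 0.03 in edgeR), and shared regulation was not tested.

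**Figure D5:**
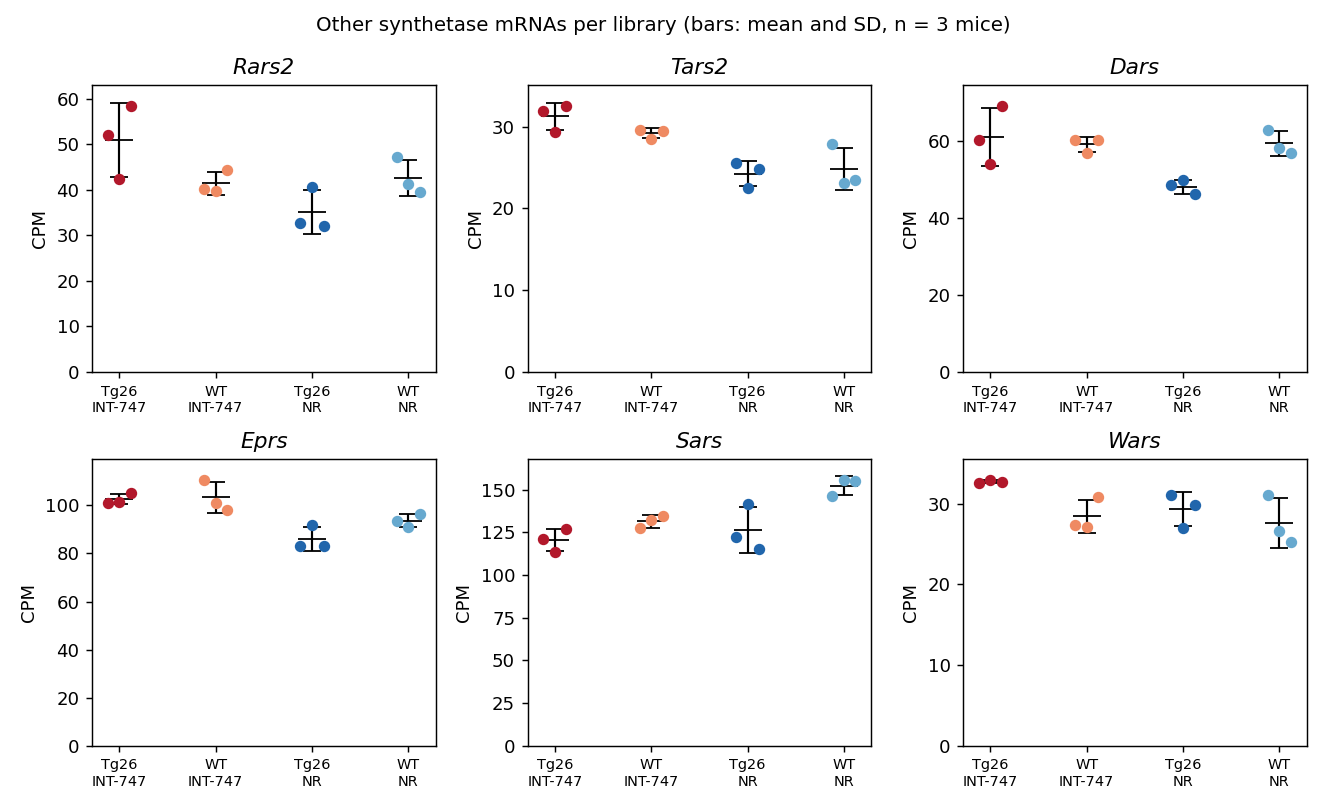
CPM of Rars2, Tars2, Dars, Eprs, Sars and Wars in each mouse, by group, with the mean and SD (n = 3). Dars lies at 46.1 to 49.7 in Tg26 mice under NR, below the other 3 groups, and Sars is highest in WT mice under NR, at 146 to 156.

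Within groups most pairs of members had a positive correlation. Over deviations from the group means in 12 libraries, the median Pearson r was 0.32 over 171 pairs of cytosolic members, 0.31 over 120 pairs of mitochondrial members and 0.24 over the 304 pairs between compartments, against -0.00 over all pairs of genes tested. The values ran from -0.83, between Cars and Wars, to 0.93, between Rars and Rars2, and 130 of the 595 pairs were below 0. These values describe libraries that share depth and scaling and are given without a test.

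Genes with and without a CARE match were set side by side as a description. All 5 genes with a match were cytosolic and 14 of the 21 without one were mitochondrial. Match and compartment therefore cannot be told apart here. Members without a matched promoter were left out, and the part of ATF4 was not tested. Between INT-747 and NR in Tg26 mice, 4 of 5 genes with a match were higher, with a median log2 fold change of 0.20, and 20 of 21 without one were higher, with a median of 0.28. Between Tg26 and WT mice under NR the medians were -0.16 and -0.14. Most other genes of the amino acid response were lower where most synthetases were higher. Of 29 tested, 9 were higher and 20 lower in INT-747 over NR in Tg26 mice (median -0.29), where 53.9% of all genes were lower, and 3 fell at an adjusted p under 0.05 in edgeR, where 1.48% of all genes did. These were Psat1 (-1.43, adjusted p = 0.0305) and Phgdh (-1.03, adjusted p = 0.0473), enzymes of serine synthesis, and Nupr1 (-1.14, adjusted p = 0.048), a stress-response gene. Atf4 itself was at -0.01 (SE 0.15) and Ddit3 at 0.03 (SE 0.19). Eif2ak4, the kinase that senses uncharged tRNA, was at -0.21 (SE 0.13) and Gcn1l1, its activator, at 0.24 (SE 0.13). Eif2s1, the subunit of eIF2 that the kinase phosphorylates, rose by 0.43 (SE 0.08, adjusted p = 0.0287).

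Genes that work beside the mitochondrial synthetases showed the same signs. Of 9 mitochondrial translation factors, 8 were higher in INT-747 over NR in Tg26 mice (median 0.40), where 46.1% of all genes were higher. The elongation factor gene Gfm2 rose by 0.52 (SE 0.11, adjusted p = 0.0354 in edgeR), where 2.9% of all genes were called higher. Tufm, which delivers charged tRNA to the mitochondrial ribosome, was at 0.40 (SE 0.11, adjusted p = 0.0611). All 9 were lower in Tg26 than in WT mice under NR (median -0.28), none at an adjusted p under 0.05. The 4 genes of glutaminyl-tRNA amidotransferase and methionyl-tRNA formylation were all higher in INT-747 over NR in Tg26 mice (median 0.20), none called. By contrast, 2 of 5 cytosolic elongation factor genes were higher (median -0.04). Of the 3 scaffold genes of the multisynthetase complex, Eef1e1 was at 0.50 (SE 0.14, adjusted p = 0.061), Aimp2 at 0.14 (SE 0.14) and Aimp1 at -0.02 (SE 0.09). Of 22 genes of tRNA processing and modification, 16 were higher (median 0.08) and none was called.

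Chaperone genes had larger differences. All 15 listed targets of HSF1 and of the endoplasmic reticulum stress response were higher in INT-747 over NR in Tg26 mice (median 0.63). 4 rose at an adjusted p under 0.05 in edgeR, where 2.9% of all genes did: Hsph1 by 1.34, Creld2 by 0.93, Hsp90b1 by 0.70 and Hspa4l by 0.63. Interferon-γ response genes, of interest beside Wars, were higher in Tg26 than in WT mice under NR in 17 of 17 cases (median 0.78), where 48.6% of all genes were higher, none called. Between INT-747 and NR in Tg26 mice only 4 of 17 were higher, where 46.1% of all genes were. Igtp was among those 4 and rose by 1.01 (SE 0.19, adjusted p = 0.0287 in edgeR), against the direction of most of the list. Of all genes tested 2.9% were called higher. Wars had 31.1, 27.0 and 29.9 CPM in Tg26 mice given NR, against 31.1, 26.6 and 25.2 CPM in WT mice given NR, which overlapped.

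The libraries were also described by cell type markers and other features. All 7 proximal tubule genes of the marker list were detected in every library, as kidney cortex should hold them. The summed level of 5 tubular injury genes was 262 to 599 CPM in Tg26 and 248 to 342 CPM in WT mice under INT-747, and 510.3 to 1438 CPM in Tg26 and 219 to 273 CPM in WT mice under NR. The summed level of 7 proximal tubule genes was 12116 to 14374 CPM in Tg26 and 12321 to 14242 CPM in WT mice under INT-747, and 9504 to 13191 CPM in Tg26 and 11995 to 14990 CPM in WT mice under NR. For 5 macrophage genes the sums were 87.2 to 279 CPM in Tg26 and 61.4 to 93.8 CPM in WT mice under INT-747, and 45.2 to 461 CPM in Tg26 and 31.3 to 58.2 CPM in WT mice under NR. These 3 sums overlapped between Tg26 mice given INT-747 and Tg26 mice given NR. They lean on single genes: over the 12 libraries Spp1 alone had 207 to 1190 CPM of the injury sum. Slc34a1 had 5297 to 7955 CPM of the proximal tubule sum and Lyz2 4.90 to 348 CPM of the macrophage sum. Among the 7 proximal tubule genes, Slc5a12 was lower under INT-747 by 0.79 on the log2 scale between these Tg26 groups (adjusted p = 0.0299 in edgeR). The sum of the 7 genes had the other direction, within its overlap. It averaged 13502 ± 1214 CPM in Tg26 mice given INT-747 and 11034 ± 1921 CPM in Tg26 mice given NR (SD). The sums of 2 collecting duct and 2 liver genes did not overlap. The collecting duct sum was 74.2 to 99.8 CPM in Tg26 mice given INT-747 and 110.2 to 164 CPM in Tg26 mice given NR, and Aqp2 fell by 0.68 (adjusted p = 0.0362 in edgeR). The liver sum was 2.44 to 3.03 CPM in Tg26 mice given INT-747 and 9.14 to 18.9 CPM in Tg26 mice given NR. The 5 podocyte genes were all lower under INT-747, none called, and their sums overlapped, at 283 to 346 CPM in Tg26 mice given INT-747 and 319 to 563 CPM in Tg26 mice given NR. A score of circadian clock genes (log2, output and repressor genes minus those of opposite phase) was 2.45 to 3.17 in Tg26 and -0.19 to 0.66 in WT mice under INT-747, and 0.58 to 3.57 in Tg26 and -0.61 to 3.25 in WT mice under NR. The part of these features in the synthetase differences was not tested, beyond the fits with terms for the clock score and sex.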

How the data were processed

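Messenger RNA of 12 kidney cortex samples was sequenced, from stranded mRNA libraries per the labels' protocols. The deposited values are RSEM expected counts per gene, not scaled to library size. Per the submitters' processing notes the tools were bcl2fastq 2.17, cutadapt 1.18, STAR 2.7.0f and RSEM 1.3.1, and the build was mm10; the sources used here do not give their order, settings or counting strand. 0 deposited values were not whole, so no rounding was needed.

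Gene positions and lengths came from release M21 of GENCODE, which matched the table's gene identifiers. Totals ran from 22286343 to 28952177 counts per library. Genes were kept with filterByExpr of edgeR, scaled by TMM and fitted in 1 quasi-likelihood model with a mean per group and robust estimation, with 8 residual degrees of freedom (common biological coefficient of variation 0.214). Each of 7 contrasts was adjusted by Benjamini-Hochberg over all 15708 genes tested, and called means an adjusted p under 0.05. CPM use TMM library sizes, and the SE is that of the log2 fold change. Fits ran in R 4.3.3 with edgeR 4.0.16 and limma 3.58.1, and the alternative test used DESeq2 1.42.0; the script was tested on simulated counts.

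The members and lists were chosen with earlier results of these data known. Values per mouse are given for members called in any contrast, for the 4 members of smallest p in each comparison of 2 groups, and for the most and least abundant member of each compartment; from each other list up to 4 genes of smallest p were named, besides Atf4, Ddit3, Eif2ak4 and Gcn1l1 (the table's symbol for Gcn1). Tufm, Aimp1 and Aimp2 were named for their role. The samples were different mice as far as the labels show, and p-values measure the spread between these samples. Alternatives were other scaling, filters and tests, terms for sex, clock score or replicate number, fits of the compared groups alone, and leaving out each library.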

Additional observations from a re-analysis of the deposited data

Results flagged for a closer look

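Farsb, the gene of the phenylalanyl-tRNA synthetase subunit, stood out because its genotype difference had opposite signs under the treatments. Every Tg26 mouse lay above every WT mouse under INT-747 and below every WT mouse under NR. The difference between the genotype effects was 1.22 on the log2 scale, and its own test gave an adjusted p of 0.123 in edgeR. Without the Tg26 NR library that carried Xist counts it was 1.16 (adjusted p = 0.14 in edgeR).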

How the results depend on the processing

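With 3 mice in each group and medians below 0.3 on the log2 scale, calls near the threshold depended on the setting. Between INT-747 and NR in Tg26 mice 3 members were called (4.38% of all genes), against 5 with the clock score (7.86%), 8 with DESeq2 (13.8%), 1 with the replicate block (0.452%), 0 with only the 2 groups compared (0%) and 0 with the sex term (0.236%), which separates the same single library, Tg26 NR replicate 3. Leaving out 1 library gave 0 to 6: 0 without WT INT-747 replicate 1, Tg26 INT-747 replicate 1 or 3, or Tg26 NR replicate 1 or 3, and 6 without Tg26 NR replicate 2. In every setting run, none of which used plain library totals, the median over members stayed between 0.142 and 0.233. Farsb kept its direction there, at 0.57 to 0.75, and was called in 16 of 23 alternatives, Rars2 in 10 and Tars2 in 9. Between Tg26 and WT mice under INT-747 the median over members, 0.05, changed sign with the clock score (-0.02), with sex and clock terms (-0.03) and without Tg26 INT-747 replicate 3 (-0.03) or WT INT-747 replicate 1 (-0.00). That under NR stayed between -0.17 and -0.12.

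Between Tg26 and WT mice under NR 0 members were called, against 1 with no filter (0.0224% of all genes), 1 with the sex term (2.16%), 1 with DESeq2 (6.16%) and 0 to 2 with a library left out. DESeq2 called 1 over the mean of both treatments and 1 in the interaction, where leaving out a library gave 0 to 1. Over the mean of both genotypes INT-747 minus NR gave 0, against 3 with the clock score (4.07% of all genes), 1 with sex and clock terms (2.44%), 3 with DESeq2 (4.94%), and 0 to 1 with a library left out. Farsb's interaction was at least 1.07 in all 22 alternatives run for it (adjusted p 3.53e-05 to 0.393). Wars, over the mean of both treatments, was -0.0022 with sex and clock terms, against 0.15; the cause was not tested. Of 632 values of named members under alternatives, 576 kept their direction and side of the threshold, 21 passed it newly, 34 no longer passed it and 1 changed sign.

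The labels do not state whether replicate numbers pair the samples. Residuals of same-numbered samples correlated at -0.23 to 0.26 over 18 pairs. Those of differently numbered samples correlated at -0.42 to 0.51 over 36 pairs, a range that holds the first. Residuals of the few mice in a group depend on each other, so these correlations cannot decide whether the numbers pair samples. The replicate block left 0 members called in the other 6 contrasts. With the longest transcript as length the median levels were 17.9 for cytosolic and 6.21 for mitochondrial members per kilobase, because the lengths are shorter.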
